A study of Mus musculus with 30 samples.

Results

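The comparison described here sets 6-month-old against 1-month-old wild-type mice in fully formed osteoclast cultures. It uses 6 of the 30 RNA-seq libraries of the series, picked by their titles: 3 titled as 6-month wild type and numbered 2, 3 and 4, and 3 titled as 1-month wild type, numbered 1, 3 and 4, whose titles carry no set tag. Both groups are C57BL/6J wild type for Terc, which is deleted (Terc-/-) in other mice of the series. In both, bone marrow-derived macrophages received 25 ng/ml of MCSF together with 100 ng/ml of RANKL, and RNA was taken once large cells with several nuclei had appeared, so the end point is a morphology and not a day. A further 3 libraries are also labelled wild type, 1 month and multinucleated, but carry the tag D1 in the title, whose meaning the labels do not give. They are called the D1-tagged 1-month libraries below and are set beside the results as a second 1-month set. The labels do not say whether libraries of a group came from separate mice or dishes. The p-values rest on the spread between libraries within the 10 groups of all 30 libraries, which may be technical. The study asked, per its design text, how gene expression of osteoclasts varies with age and with loss of Terc, the RNA template of telomerase.

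Osteoclasts are the bone-resorbing cells of the body and arise when macrophage precursors fuse. MCSF keeps the precursors alive through its receptor Csf1r, and RANKL acts through its receptor RANK (gene Tnfrsf11a) to switch on the transcription factor Nfatc1, which in turn drives the genes of fusion, attachment, acid secretion and matrix digestion. A mature osteoclast seals a patch of bone with an actin ring and integrins, acidifies it with a vacuolar proton pump (V-ATPase) and a chloride transporter, and digests the matrix with cathepsin K and metalloproteases, while genes of the macrophage state are turned down.

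The deposited counts per library summed to 16621042 to 19969599 in the 6-month libraries and 21513315 to 25147975 in the 1-month libraries. Levels are given as CPM, counts of a gene per 1e+06 counts of the library after TMM scaling, and fold changes are 6-month over 1-month on the log2 scale. Within the 6-month group, pairs of libraries differed by a chi-square per degree of freedom of 2.702 to 4.236. Replicates 3 and 4 of the 1-month group differed by 3.209, while replicate 1 differed from them by 17.55 and 21.22. On the first principal component of all 30 libraries, which held 39.26% of the variance, the 6-month libraries lay between 27.98 and 29.17 and the 1-month libraries between -41.97 and -34.79, where the Terc-deleted libraries without a set tag also lay, between -52.76 and -32.0. The D1-tagged 1-month libraries lay between 33.38 and 38.34, and the 2-day 6-month libraries between 37.48 and 39.76. On the second component, which held 29.22%, the D1-tagged libraries lay apart from the 6-month ones, at 50.33 to 52.3 against 7.787 to 9.037. The 1-month libraries lay there between -24.69 and -21.09. Between the D1-tagged and the other 1-month libraries, a contrast looked at after values were seen, 11399 of 15310 genes (74.5%) passed the threshold. The D1-tagged libraries held Xist at a mean of 851 CPM and no reads of 4 Y-linked genes, whereas the 6-month and the untagged 1-month libraries had at most 0.0602 CPM of Xist and carried the Y-linked transcripts; these levels are per library total, without TMM scaling.

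The osteoclast label was checked against 10 marker genes (Ctsk, Acp5, Mmp9, Calcr, Itgb3, Oscar, Atp6v0d2, Dcstamp, Ocstamp and Nfatc1). All 10 had a higher mean in the 6-month than in the 1-month libraries. In all 10 the mean of the 1-month libraries, although labelled multinucleated, also lay below that of the 6-month libraries labelled as 2-day cultures, the series' early stage. In 8 of the 10 the D1-tagged libraries lay above the 6-month ones. Age, stage reached and set can therefore not be told apart in the comparison, and most gene lists are given with their counts against both 1-month sets. Against the D1-tagged libraries the sex-linked transcripts differed as well, with 4 of 5 such genes higher and 1 lower at 6 months. In that comparison sex can therefore not be told apart from the other differences either. The 2 comparisons share the 6-month libraries.

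Of 15310 genes tested, 9743 (63.6%) passed an adjusted p of 0.05 between 6-month and 1-month cultures, 4772 (31.2%) higher and 4971 (32.5%) lower at 6 months. Adjusted p-values here and below come from edgeR's quasi-likelihood test with Benjamini-Hochberg adjustment over all genes tested. At least a 2-fold change was seen for 2850 genes (18.6%), 1818 (11.9%) higher and 1032 (6.74%) lower. In 10264 genes (67%) the 3 and 3 libraries did not overlap. The median log2 fold change over all genes was 0.011. Without replicate 1 of the 1-month group, 9039 genes passed. Against the D1-tagged libraries 8849 genes (57.8%) passed, 4626 (30.2%) higher and 4223 (27.6%) lower, with a median of 0.0044. With so large a share of genes past the threshold, the size and direction of a change carry more than the call, and the counts over gene lists below are read against these shares.

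**Figure D1:**
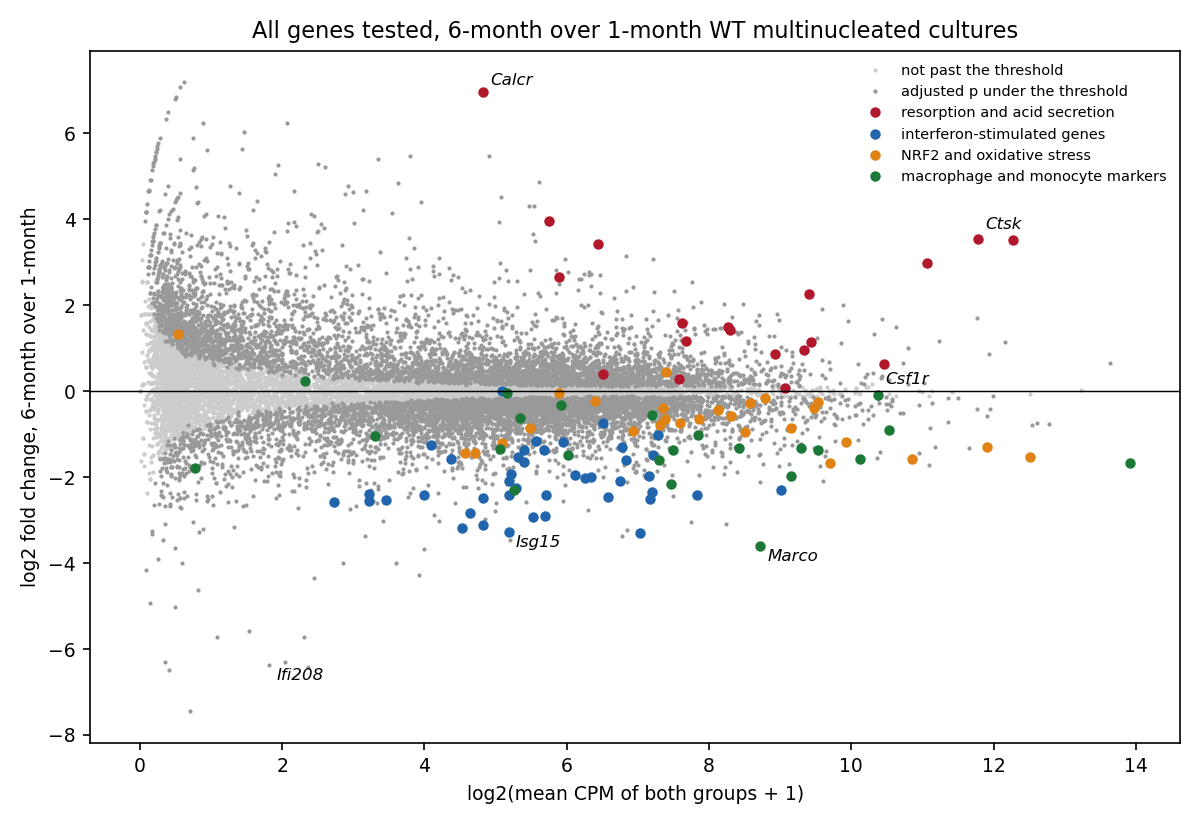
Each point is 1 of the 15310 genes tested, with the mean level of both groups on the x axis as log2(CPM + 1) and the log2 fold change of 6-month over 1-month cultures on the y axis. Genes of resorption and acid secretion lie above 0 (18 of 19 past the threshold), interferon-stimulated genes below it (41 of 42), and most NRF2 and macrophage genes below it.

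Genes that carry out bone resorption were higher in the 6-month cultures. Of 20 genes in the list of resorption and acid secretion, 19 passed the filter on low counts; 18 were higher, none was lower and 1 did not pass the threshold, where 31.2% of all genes were called higher. Their median log2 fold change was 1.49, against 0.011 over all genes. The largest change belonged to Calcr, the receptor of the resorption-blocking hormone calcitonin (gene ENSMUSG00000023964, GRCm38 chr6:3685680-3764714, reverse strand). It had 54.5, 52.2 and 56.1 CPM in the 6-month libraries, against 0.098, 0.573 and 0.573 CPM in the 1-month libraries, a log2 fold change of 6.97 ± 0.15 (SE, adjusted p = 3.23e-28), or 126-fold. In the 1-month libraries Calcr was at the edge of detection, and the groups lay far apart.

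Ctsk, the collagen-degrading protease cathepsin K (ENSMUSG00000028111, chr3:95499256-95509362, forward strand), had 6554, 6475 and 6402 CPM in the 6-month libraries, against 568, 559 and 551 CPM in the 1-month libraries, a change of 3.53 ± 0.09 (SE, adjusted p = 7.44e-27). Mmp9, the gelatinase that osteoclasts secrete, had 9641, 9152 and 8368 CPM in the 6-month libraries, against 735, 815 and 830.1 CPM in the 1-month libraries, a change of 3.51 ± 0.07 (SE, adjusted p = 2.53e-29). The 3 libraries of each group were close together for both proteases and the groups did not overlap. Acp5, the tartrate-resistant acid phosphatase used to stain osteoclasts, had 3877, 3921 and 3602 CPM in the 6-month libraries, against 488, 495 and 467 CPM in the 1-month libraries, a change of 2.98 ± 0.09 (SE, adjusted p = 1.2e-24). Itgb3, the integrin subunit that anchors the cell to bone, had 165, 152 and 155 CPM in the 6-month libraries, against 13.7, 14.5 and 15.9 CPM in the 1-month libraries, a change of 3.42 ± 0.07 (SE, adjusted p = 1.7e-28). Oscar, a costimulatory receptor of osteoclasts, had 95.9, 99.8 and 101 CPM in the 6-month libraries, against 7.89, 6.01 and 5.45 CPM in the 1-month libraries, a change of 3.95 ± 0.11 (SE, adjusted p = 9.07e-25). In each of these genes every 6-month library exceeded every 1-month library several times over.

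The machinery for making and moving acid was also higher. Car2, carbonic anhydrase II, which supplies the protons, had 104, 97.9 and 99.9 CPM in the 6-month libraries, against 14.5, 15.6 and 17.4 CPM in the 1-month libraries, a change of 2.66 ± 0.08 (SE, adjusted p = 9.61e-24). The chloride transporter Clcn7 averaged 847 ± 12.5 CPM in the 6-month and 439 ± 35.9 CPM in the 1-month libraries (SD, n = 3 each), a change of 0.95 ± 0.05 (SE, adjusted p = 1.07e-17). The pump subunit Tcirg1, mutated in osteopetrosis, averaged 1723 ± 80.6 CPM in the 6-month and 1104 ± 19.7 CPM in the 1-month libraries (SD, n = 3 each), a change of 0.64 ± 0.05 (SE, adjusted p = 1.69e-12). Both changes were smaller than those of the proteases but exceeded the spread of the libraries. Among 18 V-ATPase subunits and accessory proteins tested, 13 were higher and 3 lower, with a median of 0.57. Atp6v0d2, the subunit enriched in osteoclasts, led with 1081, 1130.2 and 1136 CPM in the 6-month libraries, against 232, 248 and 223 CPM in the 1-month libraries, a change of 2.25 ± 0.06 (SE, adjusted p = 5.45e-25). Atp6v1d rose by 1.38 ± 0.06 and Atp6v1a by 1.33 ± 0.05 (SE), both parts of the pump's V1 sector, which splits ATP.

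Against the D1-tagged 1-month libraries these genes moved the other way. Of the 19 resorption genes, 2 were higher and 15 lower, with a median of -0.50, where 30.2% and 27.6% of all genes were called. Ctsk averaged 11514 CPM there, a change of -0.83 ± 0.08 (SE, adjusted p = 3.28e-11), Mmp9 changed by -1.30, Acp5 by -1.16, Itgb3 by -0.99, Oscar by -1.35 and Calcr by -0.61. For the V-ATPase the counts were 3 higher and 11 lower, with a median of -0.15. The 6-month levels of these 6 genes lay between those of the 1-month and the D1-tagged libraries. Beside the early 6-month cultures, in which Ctsk averaged 1132 CPM and Calcr 1.5 CPM, the 1-month mean was lower for 12 of the 19 resorption genes.

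**Figure D2:**
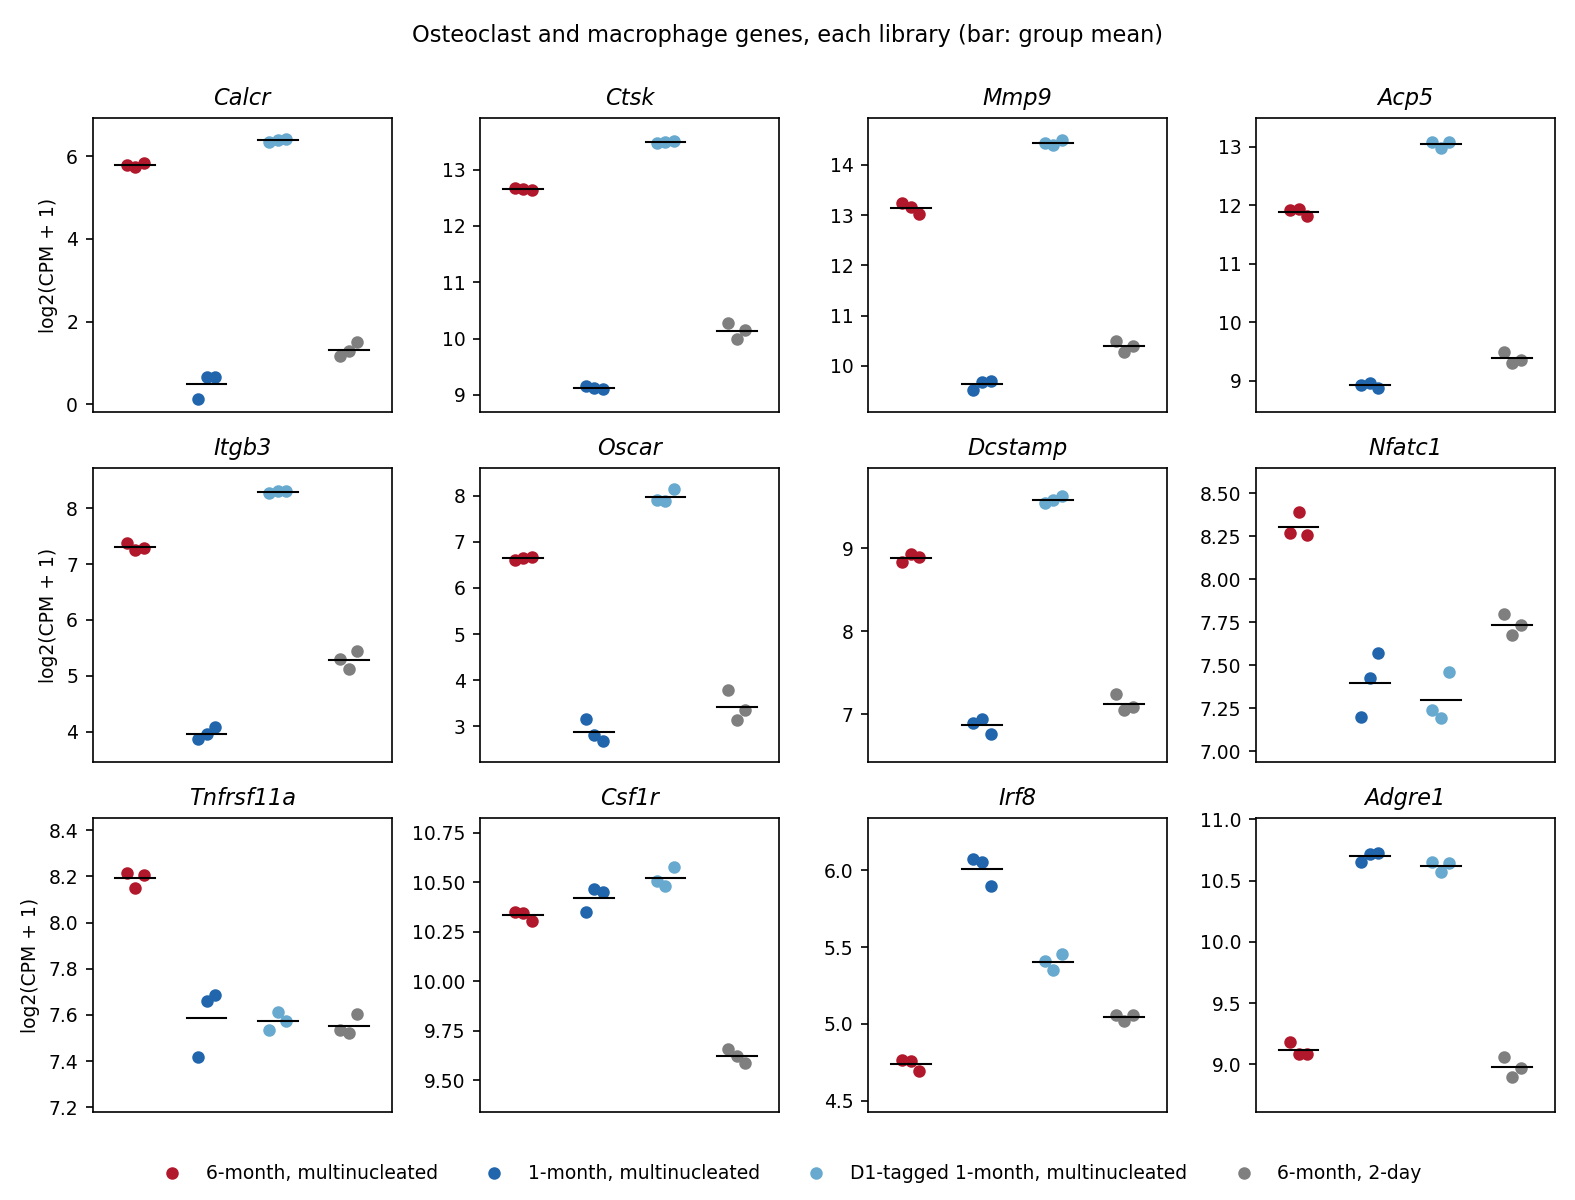
Each panel is 1 gene and each point 1 library, as log2(CPM + 1) on the y axis, with a bar at the group mean; from left to right the groups are 6-month, 1-month and D1-tagged 1-month multinucleated cultures and 6-month 2-day cultures, 3 libraries each. Calcr, Ctsk, Mmp9, Acp5, Itgb3, Oscar and Dcstamp are high at 6 months and in the D1-tagged libraries and low in the 1-month and 2-day libraries, Nfatc1 and Tnfrsf11a are highest at 6 months, and Irf8 and Adgre1 are lower at 6 months than in either 1-month set.

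In bulk RNA, fewer cells of a type and less RNA per cell cannot be told apart. Of 28 genes of RANK signalling and osteoclast transcription factors, 10 were higher and 12 lower, with a median of -0.10. Over all genes 31.2% were called higher and 32.5% lower. Against the D1-tagged set 13 of the 28 were higher and 5 lower, with a median of 0.12. Nfatc1, the master transcription factor of the lineage, had 307, 335 and 306 CPM in the 6-month libraries, against 146, 171 and 189 CPM in the 1-month libraries, a change of 0.90 ± 0.07 (SE, adjusted p = 5.58e-13). Tnfrsf11a, the receptor RANK, had 296, 283 and 294 CPM in the 6-month libraries, against 170.0, 201 and 205 CPM in the 1-month libraries, a change of 0.60 ± 0.06 (SE, adjusted p = 1.21e-10). The 6-month libraries were above all 1-month libraries in both. These 2 genes were also higher against the D1-tagged libraries, where Nfatc1 averaged 157 CPM, a change of 1.01 ± 0.07 (SE, adjusted p = 5.29e-14), and Tnfrsf11a averaged 189 CPM, a change of 0.62 ± 0.06 (SE, adjusted p = 7.72e-11).

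Ppargc1b, a coactivator of mitochondrial genes in osteoclasts, had 54.4, 54.2 and 55.1 CPM in the 6-month libraries, against 10.9, 16.4 and 18.1 CPM in the 1-month libraries, a change of 1.84 ± 0.10 (SE, adjusted p = 4.4e-17), and changed by 0.50 against the D1-tagged set. The AP-1 member Fosl2 rose by 1.36 ± 0.06 (SE) but changed by -0.19 against the D1-tagged set. On the falling side were Fcer1g, the signalling adaptor of Oscar, at -1.46, and the heme enzyme Blvrb at -1.26. Csf1r, the MCSF receptor, had 1302, 1298 and 1264 CPM in the 6-month libraries, against 1306, 1411 and 1398 CPM in the 1-month libraries and a change of -0.09 ± 0.04 (SE, adjusted p = 0.078), which did not pass the threshold; without 1-month replicate 1 it did, at -0.128 (adjusted p = 0.022). The groups lay close together, with the lowest 1-month library just above the highest 6-month one. In the list of repressors of osteoclast formation 2 of 15 members were higher and 11 lower, with a median of -0.56. Irf8, a repressor of Nfatc1 in macrophages, had 26.2, 26 and 24.8 CPM in the 6-month libraries, against 66.4, 65.5 and 58.7 CPM in the 1-month libraries, a change of -1.31 ± 0.06 (SE, adjusted p = 1.45e-18). The helix-loop-helix inhibitors Id1, Id2 and Id3 changed by -1.81, -1.79 and -1.40, and the inhibitory receptor Lilrb4a by -0.95. With the D1-tagged libraries as the 1-month set, 1 repressor was higher and 12 were lower, Irf8 changing by -0.69, Id2 by -1.06 and Lilrb4a by -0.98.

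Of 16 fusion genes tested, 8 were higher and 7 lower, with a median of 0.02, where 31.2% and 32.5% of all genes were called. Against the D1-tagged set 1 was higher and 9 were lower, with a median of -0.26, where 30.2% and 27.6% of all genes were called. Dcstamp, a membrane protein required for fusion, had 455, 486 and 473 CPM in the 6-month libraries, against 118, 122 and 108 CPM in the 1-month libraries, a change of 2.03 ± 0.07 (SE, adjusted p = 2.57e-23). Its partner Ocstamp had 167, 169 and 149.9 CPM in the 6-month libraries, against 55.5, 60.5 and 62 CPM in the 1-month libraries, a change of 1.45 ± 0.08 (SE, adjusted p = 3.08e-17). Siglec15, a sialic acid-binding receptor of osteoclasts, rose by 3.09 ± 0.14, the receptor kinase gene Mst1r by 2.29 ± 0.08 and the podosome adaptor gene Sh3pxd2a by 1.61 ± 0.09 (SE). Adam8, a membrane metalloprotease, fell instead, with 1099.8, 1095 and 1033 CPM in the 6-month libraries, against 2769, 3000.0 and 2930.0 CPM in the 1-month libraries, a change of -1.43 ± 0.05 (SE, adjusted p = 4.12e-22). Ocstamp was also higher against the D1-tagged set, at 0.29, while Dcstamp changed by -0.70, Siglec15 by -0.80 and Mst1r by -1.45. Adam8 was at 0.09 with an adjusted p of 0.13.

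Among factors by which osteoclasts signal to bone-forming cells, 8 of 12 tested were higher and 2 lower, with a median of 0.55. Sphk1, which makes sphingosine 1-phosphate, had 10.8, 12 and 9.63 CPM in the 6-month libraries, against 2.2, 1.38 and 1.93 CPM in the 1-month libraries, a change of 2.55 ± 0.18 (SE, adjusted p = 1.6e-14). The cytokine gene Lif rose by 2.24 ± 0.12, the ephrin gene Efnb2 by 2.17 ± 0.14 and the semaphorin gene Sema4d by 0.49 ± 0.05 (SE), while the chemokine gene Cxcl16 changed by -1.47 ± 0.07 (SE). None of the 12 was higher and 9 were lower against the D1-tagged libraries, with a median of -0.76, Sphk1 changing by -0.90 and Lif by -0.98.

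The 12 largest increases among expressed genes held, beside Calcr, several genes not usually listed as osteoclast markers. Steap4, a metalloreductase for iron and copper, had 25.4, 25.2 and 25.4 CPM in the 6-month libraries, against 0.735, 0.525 and 0.451 CPM in the 1-month libraries, a change of 5.47 ± 0.15 (SE, adjusted p = 6.39e-25). Corin, a membrane serine protease, had 19.4, 18.1 and 16.1 CPM in the 6-month libraries, against 0.49, 0.573 and 0.205 CPM in the 1-month libraries, a change of 5.41 ± 0.18 (SE, adjusted p = 7.9e-23). Mt3, a metallothionein, had 91.3, 90.5 and 96.5 CPM in the 6-month libraries, against 2.6, 3.67 and 3.19 CPM in the 1-month libraries, a change of 4.87 ± 0.14 (SE, adjusted p = 9.93e-25). Each of these was near the floor of detection or a few CPM at 1 month and an order of magnitude or more higher at 6 months, in all 3 libraries. Igfbp5, a binding protein of insulin-like growth factors, had 66.9, 57.2 and 46.1 CPM in the 6-month libraries, against 0.882, 1.05 and 1.8 CPM in the 1-month libraries, a change of 5.47 ± 0.24 (SE, adjusted p = 7.47e-20). Sfrp4, a secreted Wnt antagonist, had 9.58, 10 and 7.79 CPM in the 6-month libraries, against 0.196, 0.382 and 0.123 CPM in the 1-month libraries, a change of 5.27 ± 0.35 (SE, adjusted p = 3.9e-15). Against the D1-tagged set 5 of the 12 were also higher, Igfbp5 by 2.92, Sfrp4 by 2.98, P3h2 by 0.73, Olfml2a by 0.62 and Mt3 by 0.35. The other 7 were lower, among them Calcr, Steap4 at -1.14, Corin at -0.84 and St8sia6 at -2.25. Igfbp5 averaged 86.4 CPM in the 2-day 6-month cultures. The others of the 12 were Olfml2a (6.23, with no reads in 1 of the 1-month libraries), P3h2, a prolyl hydroxylase gene (5.26), the sialyltransferase gene St8sia6 (5.05), Ephx2, a soluble epoxide hydrolase gene (4.83), the chloride channel gene Clic5 (4.78) and the mitochondrial creatine kinase gene Ckmt1 (4.66).

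Markers of macrophages and monocytes were lower in the 6-month cultures. Of 23 tested, none was higher, 20 were lower and 3 did not pass, with a median of -1.36, where 32.5% of all genes were called lower. Marco, a scavenger receptor of macrophages, had 69.8, 62.2 and 59.9 CPM in the 6-month libraries, against 869, 708 and 751 CPM in the 1-month libraries, a change of -3.60 ± 0.12 (SE, adjusted p = 4.26e-23). Adgre1, which encodes F4/80, had 579, 543 and 542 CPM in the 6-month libraries, against 1607, 1684 and 1691 CPM in the 1-month libraries, a change of -1.58 ± 0.05 (SE, adjusted p = 1.82e-23). Lyz2, lysozyme, had 7372, 7376 and 7589 CPM in the 6-month libraries, against 24750.0, 22539 and 23380.0 CPM in the 1-month libraries, a change of -1.66 ± 0.05 (SE, adjusted p = 1.61e-23). In all 3 genes the highest 6-month library was far below the lowest 1-month library. The pattern-recognition receptor gene Tlr2 changed by -2.16, the lectin gene Clec4d by -1.97 and the Fc receptor gene Fcgr1 by -2.30. Set against the D1-tagged libraries, 2 were higher and 20 lower, with a median of -1.06. Marco changed by -5.21, Adgre1 by -1.51, Lyz2 by -0.98, Tlr2 by -1.42, and Fcgr1 by 0.37. Beside the 2-day 6-month cultures, the 1-month mean was lower for only 1 of the 23 markers. Marco averaged 32.7 CPM, Adgre1 503 CPM and Lyz2 6458 CPM in those early cultures.

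The complement and tissue macrophage list held 3 higher and 11 lower genes of 19 tested, with a median of -0.54. C1qa, C1qb and C1qc, the chains of the complement recognition protein, went down together. C1qa had 101, 92.4 and 94 CPM in the 6-month libraries, against 448, 330.3 and 324 CPM in the 1-month libraries, a change of -1.94 ± 0.13 (SE, adjusted p = 3.53e-15), and C1qb and C1qc changed by -1.47 and -1.89. Replicate 1 of the 1-month group was the highest for all 3 chains. Cd5l, a secreted macrophage protein, was among the higher ones, with 62.6, 60 and 47.4 CPM in the 6-month libraries, against 42.3, 40.3 and 37.4 CPM in the 1-month libraries, a change of 0.50 ± 0.08 (SE, adjusted p = 2.07e-06). C1qa changed by -1.28 and Cd5l by 2.42 against the D1-tagged set. Of 12 genes of MHC class II presentation 1 was higher and 7 were lower, with a median of -0.31; the costimulatory gene Cd40 changed by -1.43, Cd86 by -0.80 and the peptide-loading gene H2-DMa by -1.14. With the D1-tagged set 1 was higher and 7 were lower, with a median of -0.62. The complement list then held 4 higher and 10 lower genes, with a median of -0.56.

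Lysosomal genes other than those of the resorption machinery were lower as a group. Of 28 tested, 6 were higher and 20 lower, with a median of -0.38, and against the D1-tagged libraries 1 was higher and 26 were lower, with a median of -0.42. Ctsl, cathepsin L, had 979.7, 1029 and 1036 CPM in the 6-month libraries, against 3852, 3227 and 3006 CPM in the 1-month libraries, a change of -1.73 ± 0.07 (SE, adjusted p = 2.2e-20). Ctss, the cathepsin of antigen presentation, had 638, 663 and 681 CPM in the 6-month libraries, against 2081, 2005 and 1779 CPM in the 1-month libraries, a change of -1.57 ± 0.06 (SE, adjusted p = 9.93e-22). Cathepsin D (Ctsd) changed by -1.32, cathepsin C (Ctsc) by -1.30 and cathepsin B (Ctsb) by -0.74, whereas Ctsk was higher. The changes against the D1-tagged set were -0.77 for Ctsl, -0.73 for Ctss, -0.99 for Ctsd and -0.59 for Ctsb.

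Interferon-stimulated genes were lower in the 6-month cultures. Of 42 tested, none was higher, 41 were lower and 1 (Gbp7) did not pass, with a median of -2.18, where 32.5% of all genes were called lower. Irf7, the transcription factor that amplifies the type I interferon response, had 22.4, 20.8 and 28.4 CPM in the 6-month libraries, against 247, 275 and 186 CPM in the 1-month libraries, a change of -3.30 ± 0.15 (SE, adjusted p = 8.9e-20). Isg15, a ubiquitin-like protein induced by interferon, had 6.42, 5.66 and 7.75 CPM in the 6-month libraries, against 64, 78 and 50.3 CPM in the 1-month libraries, a change of -3.27 ± 0.18 (SE, adjusted p = 4.79e-17). Every 6-month library was several times below every 1-month library for both. Oasl1 and Zbp1, an oligoadenylate synthetase-like gene and a nucleic acid sensor gene, changed by -3.18 and -3.12, and Ly6e, a membrane protein gene, by -2.31. Ifi208 and Ifi206, of the interferon-inducible p200 family, were among the 12 largest decreases, as was Lrmda, at -4.01. Ifi208 had 0.0584, 0.0524 and 0.0484 CPM in the 6-month libraries, against 5.29, 5.3 and 4.42 CPM in the 1-month libraries, which is 1 count in each 6-month library, and Ifi206 changed by -3.38. Genes of the p200, Ifit and Oas families have near-identical copies, and how reads shared between copies were counted is not recorded, so single members of these families are uncertain.

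Against the D1-tagged libraries 17 of the 42 interferon-stimulated genes were higher and 3 lower, with a median of 0.21; Irf7 had 13.5, 15.5 and 15.9 CPM there and Isg15 had 3.49, 3.67 and 4.77 CPM, below the 6-month libraries. Ifi208, at a mean of 0.612 CPM in that set, and Lrmda, with a change of -3.68, were lower at 6 months against both sets, while Ifi206 was at -0.18 (adjusted p = 0.66). In the 2-day 6-month cultures Irf7 averaged 32.8 CPM and Isg15 13.2 CPM, against 6-month multinucleated means and SDs of 23.9 ± 4.03 and 6.61 ± 1.06 CPM (n = 3). Irf7 and Isg15 were thus highest in the untagged 1-month libraries among the 4 groups in the plot of interferon genes.

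**Figure D3:**
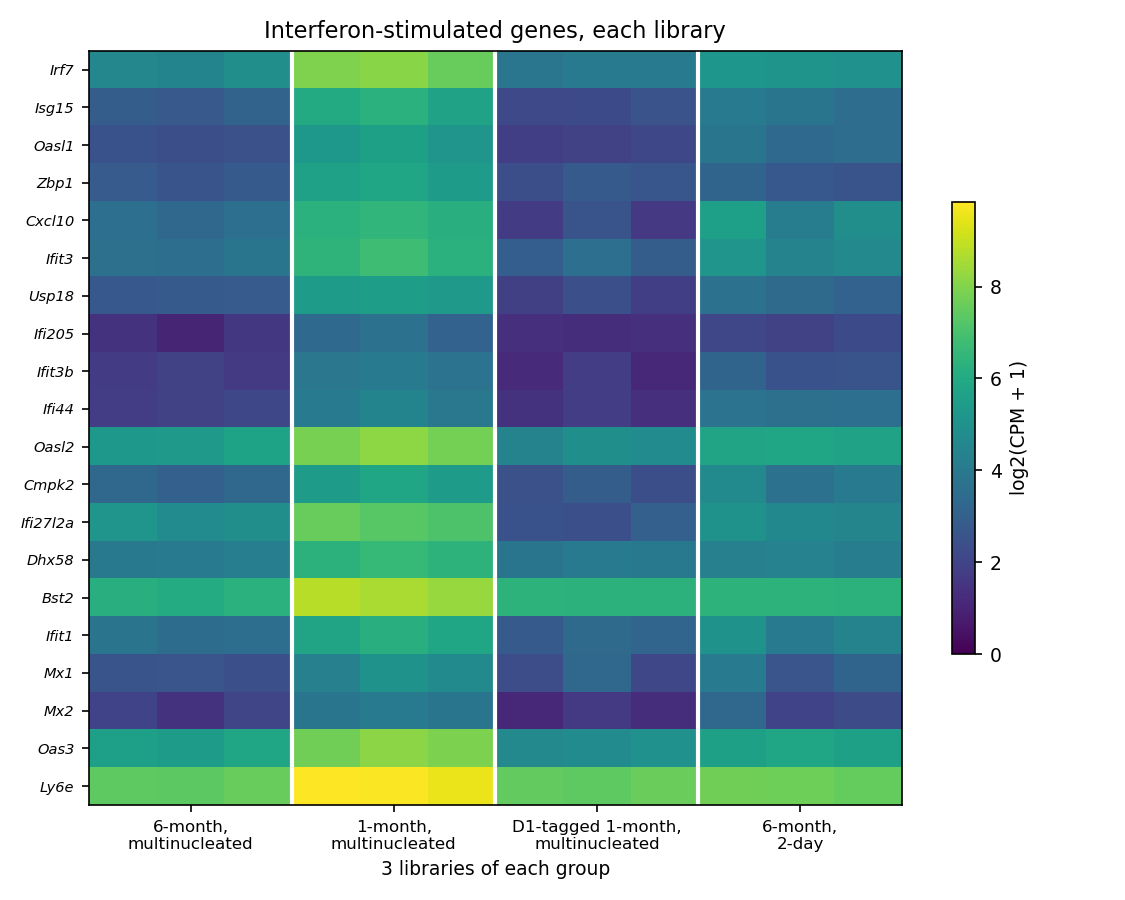
Rows are the 20 interferon-stimulated genes with the largest decreases of the 42 tested, ordered by fold change, and columns are libraries, 3 each of 6-month, 1-month and D1-tagged 1-month multinucleated cultures and 6-month 2-day cultures; the colour is log2(CPM + 1). The 1-month block is brighter than the 6-month block in all 20 rows, while the D1-tagged block is close to the 6-month one or darker.

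The interferon-stimulated response element is the sequence through which interferon-activated factors bind promoters. It was searched as GAAA, any 2 bases and GAAA again, on either strand in the 250 bases before the start. A match was present for 17 of 29 listed genes with a promoter in the RefSeq table (58.6%), against 365 of 10871 tested genes with one (3.36%). Matches to different motifs may share bases, and a match is a description of the letters. The stretches around the elements of Isg15, Cxcl10, Ifit3 and Ifi205, the 4 members with the largest decreases that hold a match, are shown for the arrangement of the sites; Cxcl10 is a chemokine gene and changed by -2.94, Ifit3 by -2.92 and Ifi205 by -2.57. They are from RefSeq, GRCm38.p6, read 5′ to 3′ on the strand of the gene, with the matched letters in capitals; in Ifit3 the match is on the opposite strand and in Isg15 3 overlapping matches form 1 run.
Isg15, chr4:156200835-156200936, reverse strand: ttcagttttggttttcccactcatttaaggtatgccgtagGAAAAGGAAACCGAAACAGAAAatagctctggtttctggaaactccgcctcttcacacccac
Cxcl10, chr5:92349053-92349139, reverse strand: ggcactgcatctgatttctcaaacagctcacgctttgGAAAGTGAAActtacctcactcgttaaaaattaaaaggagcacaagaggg
Ifit3, chr19:34583333-34583456, forward strand: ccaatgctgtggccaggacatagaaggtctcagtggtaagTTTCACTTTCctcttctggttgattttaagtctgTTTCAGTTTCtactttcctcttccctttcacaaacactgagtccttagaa
Ifi205, chr1:174031840-174031929, reverse strand: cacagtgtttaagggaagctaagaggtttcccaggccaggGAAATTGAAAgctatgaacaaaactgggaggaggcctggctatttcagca

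Inflammatory cytokines and other secreted factors of the senescence-associated secretory phenotype (SASP) were mostly lower at 6 months. Of 34 tested, 5 were higher and 25 lower, with a median of -1.38. Cxcl2, a neutrophil-attracting chemokine, had 5.37, 4.98 and 7.26 CPM in the 6-month libraries, against 78.4, 58.7 and 60.2 CPM in the 1-month libraries, a change of -3.47 ± 0.15 (SE, adjusted p = 3.36e-20). Its relative Cxcl3 had 0.409, 0.681 and 0.145 CPM in the 6-month libraries, against 11.8, 5.73 and 7.95 CPM in the 1-month libraries, a change of -4.36 ± 0.34 (SE, adjusted p = 3.37e-13), or -4.98 without 6-month replicate 3. The lymphocyte chemokine gene Ccl5 had 1.11, 2.15 and 0.871 CPM in the 6-month libraries, against 30.3, 26.8 and 23.3 CPM in the 1-month libraries, a change of -4.28 ± 0.18 (SE, adjusted p = 5.35e-20). The monocyte chemokine gene Ccl12 had 2.34, 1.73 and 2.42 CPM in the 6-month libraries, against 35.7, 23 and 24.6 CPM in the 1-month libraries, a change of -3.67 ± 0.20 (SE, adjusted p = 1.79e-17). In the 6-month libraries all 4 chemokines were down to a few CPM or less. Spp1, osteopontin, changed by -0.57, and Vegfa, a growth factor of vessels, was higher (adjusted p = 2.26e-14). Set against the D1-tagged libraries, 3 were higher and 23 lower, with a median of -0.88; Cxcl2 changed by -2.03, Cxcl3 by -5.05, Ccl5 by -1.13 and Spp1 by -1.19 while Ccl12 was at -0.59 (adjusted p = 0.062). Vegfa changed by -0.89, opposite in direction.

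An NF-kB site, searched as GGG, any 2 bases and TTTCC, on either strand in the same windows, was present for 6 of 26 listed genes with a promoter (23.1%), against 198 of 10871 tested genes (1.82%). The windows of Cxcl3 and Cxcl2, which had the largest decreases among the genes with a match, are shown with the sites in capitals, from RefSeq GRCm38.p6.
Cxcl3, chr5:90785988-90786077, forward strand: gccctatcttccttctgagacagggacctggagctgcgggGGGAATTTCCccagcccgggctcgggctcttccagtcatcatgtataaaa
Cxcl2, chr5:90903762-90903870, forward strand: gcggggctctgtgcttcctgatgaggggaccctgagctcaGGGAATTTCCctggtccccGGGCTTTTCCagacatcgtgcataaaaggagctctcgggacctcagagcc

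Targets of NRF2, the regulator of the antioxidant response, and other oxidative stress genes were lower. Of 27 tested, 2 were higher, 24 lower and 1 did not pass, with a median of -0.75. Hmox1, heme oxygenase 1, had 423, 402 and 362 CPM in the 6-month libraries, against 1372, 1218 and 1202 CPM in the 1-month libraries, a change of -1.68 ± 0.07 (SE, adjusted p = 5.27e-21). Prdx1, a peroxiredoxin, had 871, 941 and 958 CPM in the 6-month libraries, against 3117, 2664 and 2493 CPM in the 1-month libraries, a change of -1.58 ± 0.07 (SE, adjusted p = 4.35e-20). Fth1, the ferritin heavy chain, had 2807, 3211 and 2954 CPM in the 6-month libraries, against 9866, 8159.6 and 7861 CPM in the 1-month libraries, a change of -1.53 ± 0.07 (SE, adjusted p = 1.02e-18). The 6-month libraries lay at about the same level as each other and below all 1-month libraries in all 3 genes. The quinone reductase gene Nqo1 changed by -1.45. With the D1-tagged set 3 were higher and 20 lower, with a median of -0.57, and the changes were -1.45 for Hmox1, -1.55 for Prdx1, -1.02 for Fth1 and -2.24 for Nqo1. The antioxidant response element, searched as TGAC, any 3 bases and GCA, was found for 1 of 22 of these promoters (4.55%) against 2.72% of all, and the AP-1 site TGANTCA for 1 of 15 resorption promoters (6.67%), 8 of 26 SASP promoters (30.8%) and 8 of 29 interferon promoters (27.6%) against 6.03%. The interferon element was found for 2 of 15 resorption promoters (13.3%) and 2 of 12 V-ATPase promoters (16.7%). It was found for 4 of 26 SASP promoters (15.4%) and 0 of 22 NRF2 promoters, against 3.36% of all genes tested.

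Of 16 iron genes 7 were higher and 7 lower, with a median of -0.01, where 31.2% and 32.5% of all genes were called. Against the D1-tagged set 1 was higher and 12 were lower, with a median of -0.65, where 30.2% and 27.6% of all genes were called. Tfrc, the transferrin receptor by which osteoclasts take up iron, had 1129, 1204 and 1305 CPM in the 6-month libraries, against 306, 339.6 and 328 CPM in the 1-month libraries, a change of 1.90 ± 0.06 (SE, adjusted p = 3.16e-24), opposite to Fth1, which stores it. Tfrc changed by -0.90 against the D1-tagged set. Of 27 genes of the unfolded protein and integrated stress response, 10 were higher and 10 lower, with a median of -0.01. Over all genes 31.2% were called higher and 32.5% lower. The stress factor gene Atf3 changed by -1.10, Atf5 by -1.03 and the lipoprotein receptor gene Vldlr by 1.10. With the D1-tagged set 17 were higher and 7 lower, with a median of 0.21, and Atf3 changed by -1.02, Atf5 by -0.90 and Vldlr by -1.18. Of 25 heat shock and immediate early genes 2 were higher and 16 lower, with a median of -0.28, among them the transcription factor genes Klf2 at -1.90 and Klf4 at -1.27; against the D1-tagged set 14 were higher and 7 lower, and Klf2 changed by 1.26. The chaperone gene Hsp90aa1 had 719, 753 and 766 CPM in the 6-month libraries, against 764, 758 and 746 CPM in the 1-month libraries and did not pass the threshold (adjusted p = 0.73).

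Cdkn1a and Cdkn2a, inhibitors of the cell cycle that accumulate in senescent cells, were lower at 6 months. Cdkn1a, which encodes p21, had 209, 189 and 183 CPM in the 6-month libraries, against 594, 542 and 531 CPM in the 1-month libraries, a change of -1.52 ± 0.05 (SE, adjusted p = 3.81e-22). Cdkn2a, the locus of p16 and p19Arf, had 14.5, 13.7 and 15.1 CPM in the 6-month libraries, against 32.9, 31 and 27.9 CPM in the 1-month libraries, a change of -1.08 ± 0.11 (SE, adjusted p = 3.45e-10). Neither gene's libraries overlapped between the groups. The changes against the D1-tagged set were -0.31 for Cdkn1a and -1.13 for Cdkn2a. Cdkn1b, p27, was higher, with 42, 36 and 35.9 CPM in the 6-month libraries, against 15.8, 18.9 and 15 CPM in the 1-month libraries, a change of 1.20 ± 0.09 (SE, adjusted p = 3.99e-14), but changed by -0.30 against the D1-tagged set. Of 15 genes in the list of inhibitors and senescence genes 5 were higher and 9 lower, with a median of -0.37, and 7 were higher and 8 lower against the D1-tagged set, with a median of -0.22. The list of p53 targets held 8 higher and 19 lower genes of 36, with a median of -0.23. Among all genes tested 31.2% were called higher and 32.5% lower. Phlda3 changed by -1.47, Ccnd1 by -1.49 and the death effector gene Pmaip1 (Noxa) by 1.53. With the D1-tagged set 8 were higher and 17 lower, with a median of -0.21, where Phlda3 changed by -0.62 and Pmaip1 by -1.71, opposite in direction, and Ccnd1 was at 0.10 (adjusted p = 0.20).

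Proliferation genes were modestly lower than in the 1-month libraries. Of 44 cell cycle genes 1 was higher and 39 were lower, with a median of -0.66. Ccnd3, a D-type cyclin, had 20.6, 22.4 and 21.9 CPM in the 6-month libraries, against 79, 69.5 and 67.5 CPM in the 1-month libraries, a change of -1.73 ± 0.08 (SE, adjusted p = 1.46e-18), and Birc5, survivin, changed by -1.30. The mitotic cyclin gene Ccnb1 had 102, 97.3 and 107 CPM in the 6-month libraries, against 142, 139.8 and 148 CPM in the 1-month libraries, a change of -0.49 ± 0.05 (SE, adjusted p = 7.99e-10). The proliferation marker Mki67 had 521, 493 and 542 CPM in the 6-month libraries, against 410.3, 507 and 561 CPM in the 1-month libraries, with overlapping libraries and an adjusted p of 0.48. Against the D1-tagged libraries the direction was opposite: 41 of the 44 were higher and 2 lower, with a median of 1.80, Ccnb1 changing by 2.36 and Mki67 by 2.42. DNA damage and repair genes counted 6 higher and 15 lower of 31 against the 1-month set, with a median of -0.19, and 24 higher and 2 lower against the D1-tagged set, with a median of 0.69. The histone variant gene H2afx changed by -1.19 and 1.87 against the untagged and the D1-tagged set in turn. Telomerase and telomere maintenance genes counted 5 higher and 13 lower of 26, with a median of -0.20. With the D1-tagged set 17 were higher and none was lower, at a median of 0.40. Among all genes tested 31.2% were called higher and 32.5% lower, and 30.2% and 27.6% with the D1-tagged set. Ctc1, of the complex that binds the single-stranded end, changed by -0.89, the shelterin gene Acd by -0.73 and the telomerase assembly factor gene Wrap53 by -0.77.

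Transcripts of the mitochondrial genome were higher at 6 months. Of 13 tested, 12 were higher and 1 lower, with a median of 1.16, and the mitochondrial share of all counts was 4.07% to 4.30% in the 6-month and 1.96% to 2.09% in the 1-month libraries. mt-Cytb, cytochrome b, had 6036, 6488 and 6409.8 CPM in the 6-month libraries, against 2766, 2824 and 2991 CPM in the 1-month libraries, a change of 1.14 ± 0.05 (SE, adjusted p = 2.8e-20). mt-Nd5, a subunit of complex I, had 5199, 5446 and 5381 CPM in the 6-month libraries, against 1249.8, 1768 and 1869.5 CPM in the 1-month libraries, a change of 1.71 ± 0.10 (SE, adjusted p = 2.63e-16). The exception, mt-Nd3, had 1.4, 0.996 and 1.02 CPM in the 6-month libraries, against 7.84, 4.68 and 4.51 CPM in the 1-month libraries, a change of -2.31 ± 0.29 (SE, adjusted p = 1.57e-08). Copies of these genes in the nuclear genome can take reads, so the levels of single transcripts, above all those of a few CPM, are uncertain. In the D1-tagged libraries the mitochondrial share was 5.97% to 6.37%, and all 13 transcripts were lower at 6 months against that set, with a median of -0.91.

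Nuclear genes of oxidative phosphorylation were less uniform. Of 50 tested, 25 were higher and 11 lower, with a median of 0.18; Ndufs1 and Sdha, catalytic subunits of complexes I and II, rose by 0.95 ± 0.05 and 0.91 ± 0.04 (SE), while the cytochrome oxidase subunit genes Cox8a and Cox6a1 changed by -1.18 ± 0.10 and -0.90 ± 0.10 (SE). With the D1-tagged set 24 were higher and 4 lower, with a median of 0.15. Among 19 genes of mitochondrial biogenesis and import 9 were higher and 4 lower, with a median of 0.14, including the citrate cycle genes Idh3a at 0.75, Ogdh at 0.72 and Cs at 0.60; with the D1-tagged set 13 were higher and 1 lower, with a median of 0.28, and these 3 genes were at 0.41, 0.03 (adjusted p = 0.70) and -0.11. Glycolysis and hypoxia genes counted 11 higher and 14 lower of 33, with a median of -0.11. Among all genes tested 31.2% were called higher and 32.5% lower. The lactate exporter gene Slc16a3 changed by -1.11 and Pdk1, a brake on pyruvate entry into the citrate cycle, by 0.96. Egln3, an oxygen-sensing hydroxylase gene, had 21.1, 7.23 and 7.02 CPM in the 6-month libraries, against 1.57, 1.77 and 1.52 CPM in the 1-month libraries, a change of 2.84 ± 0.30 (SE, adjusted p = 4.6e-10), with 1 of the 6-month libraries well above the others and a change of 2.14 without it (replicate 2). Of the 33 glycolysis and hypoxia genes, 3 were higher and 22 lower against the D1-tagged set, with a median of -0.42. The shares of all genes there were 30.2% and 27.6%. Slc16a3 changed by -1.13, Pdk1 by -0.54 and Egln3 by -1.14 against that set.

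Lipid genes showed single large changes. In the list of LXR and lipid handling 3 of 17 were higher and 12 lower, with a median of -0.26. In that of cholesterol synthesis 11 of 27 were higher and 9 lower, with a median of 0.06. Over all genes 31.2% were called higher and 32.5% lower. Scd2, a fatty acid desaturase, had 132, 120.5 and 159 CPM in the 6-month libraries, against 20, 20.6 and 19.5 CPM in the 1-month libraries, a change of 2.78 ± 0.14 (SE, adjusted p = 1.78e-18). Cd36, the fatty acid and lipoprotein receptor, had 344, 362 and 371 CPM in the 6-month libraries, against 927, 916 and 853 CPM in the 1-month libraries, a change of -1.32 ± 0.05 (SE, adjusted p = 3.78e-21). Against the D1-tagged set Scd2 was at 0.04 (adjusted p = 0.82) and Cd36 changed by -1.36; the LXR list held 7 higher and 7 lower genes there, with a median of 0.04, and the cholesterol list 6 higher and 9 lower, with the same median. The lipid droplet gene Plin2 changed by -1.32 and the cholesterol synthesis gene Hmgcs1 by 1.28, beside 0.27 for Plin2 and 0.05 (adjusted p = 0.56) for Hmgcs1 with the D1-tagged set.

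Of 28 cytoskeletal genes 12 were higher and 9 lower, with a median of 0.07, where 31.2% and 32.5% of all genes were called. Against the D1-tagged set 16 were higher and 5 lower, with a median of 0.16. Cttn, cortactin, an actin-branching protein of podosomes, had 141, 145 and 132 CPM in the 6-month libraries, against 20.9, 21.1 and 21 CPM in the 1-month libraries, a change of 2.73 ± 0.06 (SE, adjusted p = 1.14e-27). Vcl, vinculin, changed by 1.82 ± 0.10 (SE), while Actb, beta-actin, had 4495, 4476 and 4193 CPM in the 6-month libraries, against 8212, 7172 and 7198 CPM in the 1-month libraries, a change of -0.78 ± 0.06 (SE, adjusted p = 6.6e-13). Cttn changed by 0.17 and Actb by 0.50 against the D1-tagged set, while Vcl was at -0.11 (adjusted p = 0.32).

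Ribosomal protein genes were slightly and broadly lower. Of 74 tested, 3 were higher and 57 lower, with a median of -0.38. Rplp1, of the ribosomal stalk, had 479, 469 and 447 CPM in the 6-month libraries, against 999, 804 and 782 CPM in the 1-month libraries, a change of -0.89 ± 0.09 (SE, adjusted p = 5.29e-11). Processed copies of these genes across the genome can take reads. In contrast, 72 of the 74 were higher and none was lower against the D1-tagged libraries, with a median of 0.61, and Rplp1 changed by 0.79. The fold change also followed transcript length: in 5 equal groups of protein-coding genes by summed exon length, the median log2 fold change was -0.31, -0.18, -0.05, 0.08 and 0.29 with increasing length. Against the D1-tagged set the corresponding medians were 0.07, 0.04, 0.02, 0.01 and -0.03. The median exon length was 1736 bp for the ribosomal list, 1774 bp for the nuclear oxidative phosphorylation list, 3780 bp for the interferon list, 4299 bp for the resorption list and 6806 bp for the stromal list. The part of length in these results was not tested.

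**Figure D4:**
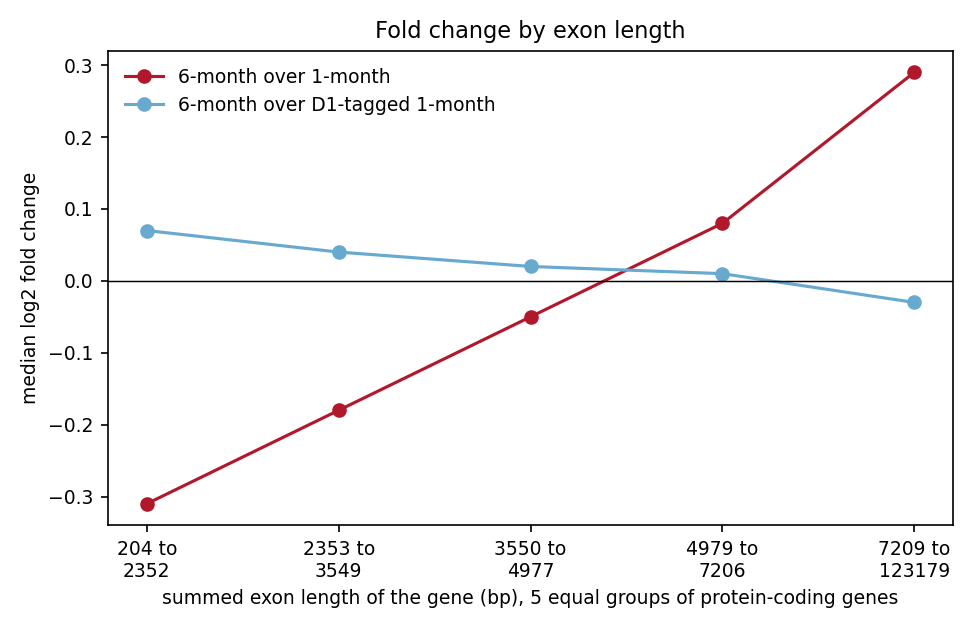
Points are medians of the log2 fold change in 5 equal groups of protein-coding genes ordered by summed exon length in bp (x axis), for 6-month over 1-month and for 6-month over D1-tagged 1-month cultures. The medians run between -0.31 and 0.29 against the 1-month libraries and between -0.03 and 0.07 against the D1-tagged ones.

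Markers of other cells differed between the groups as well. Of 24 stromal and osteoblast-lineage markers 21 were higher at 6 months, none was lower and 3 did not pass, with a median of 1.45. The summed level of the list was 3660 to 4560 CPM in the 6-month libraries, 1250 to 1310 CPM in the 1-month libraries, 7440 to 8370 CPM in the D1-tagged libraries and 12100 to 13000 CPM in the 2-day 6-month libraries, all per library total, as are the marker sums that follow, and no marker was at 0. Col1a1, a collagen I chain, had 428, 363 and 310.0 CPM in the 6-month libraries, against 137, 131 and 136 CPM in the 1-month libraries, a change of 1.45 ± 0.09 (SE, adjusted p = 7.16e-16). Cxcl12, a chemokine of marrow stromal cells, had 21.2, 21.7 and 7.89 CPM in the 6-month libraries, against 2.3, 1.53 and 1.52 CPM in the 1-month libraries, a change of 3.24 ± 0.31 (SE, adjusted p = 3.57e-11). One 6-month library held less Cxcl12 than the others but still more than any 1-month library. With the D1-tagged set 1 marker was higher and 19 were lower, with a median of -1.09, Col1a1 changing by -1.89 and Cxcl12 by 3.20. The summed macrophage markers were 12400 to 12800 CPM in the 6-month, 32100 to 33800 CPM in the 1-month and 24500 to 25500 CPM in the D1-tagged libraries. In the 2-day 6-month libraries they were 11700 to 12600 CPM, about the level of the 6-month multinucleated ones. Between the 6-month and 1-month libraries, the stromal sum was higher and the macrophage sum lower where the resorption genes were higher. The resorption list, after TMM scaling, summed to 26260 to 28106 CPM in the 6-month and 5620.9 to 5882.2 CPM in the 1-month libraries. It summed to 51419 to 54157 CPM in the D1-tagged and 6525.5 to 7115.8 CPM in the 2-day 6-month libraries. The part of the stromal and macrophage sums in the resorption result was not tested.

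Markers of other blood cells were few. Of 13 neutrophil markers 4 were tested and all 4 were lower, with a summed list level of 8.28 to 9.92 CPM in the 6-month, 50.8 to 61.4 CPM in the 1-month and 88.8 to 95.4 CPM in the D1-tagged libraries. Elane, Mpo and Prtn3, which define neutrophil precursors, were at 0 in all 6-month libraries. Lcn2, which binds bacterial iron carriers and is made by neutrophils and activated macrophages, had 1.4, 1.31 and 1.21 CPM in the 6-month libraries, against 24.3, 17.1 and 21.1 CPM in the 1-month libraries, a change of -3.99 ± 0.26 (SE, adjusted p = 4.47e-15). S100a8, a calcium-binding protein of myeloid cells, had 1.81, 1.26 and 0.968 CPM in the 6-month libraries, against 6.76, 5.49 and 5.98 CPM in the 1-month libraries, a change of -2.19 ± 0.20 (SE, adjusted p = 1.08e-11). In both the groups did not overlap, and against the D1-tagged set the changes were -3.53 and -3.50. Pf4, platelet factor 4, which some macrophages also express, had 22, 18 and 17.7 CPM in the 6-month libraries, against 271, 154 and 168 CPM in the 1-month libraries, a change of -3.36 ± 0.17 (SE, adjusted p = 3.71e-18); the hemoglobin genes Hba-a1 and Hbb-bt were at 0 in both groups. T and NK cell markers summed to at most 2.89 CPM, with Cd3d, Cd3e and Cd8a at 0 in both groups, and B cell markers to at most 5.6 CPM. Mast cell markers summed to at most 1.05 CPM, with 2 tested and neither past the threshold. Dendritic cell markers counted 1 higher and 1 lower of 8, with Itgax at -1.32, and endothelial markers 4 higher and 3 lower of 8, with Vwf at 0.90 and Kdr at -1.30. Against the D1-tagged set none of the neutrophil markers was higher and 3 were lower, the dendritic list held 1 higher and 5 lower, and the endothelial list none higher and 3 lower. Of 3 erythroid and platelet markers tested, 2 were lower. Of 2 T and NK cell markers tested, 1 was higher and 1 lower, and of 2 B cell markers 1 was higher. Of 5 sex-linked genes 2 were higher and none was lower. Counts of higher members in the dendritic, endothelial and sex-linked lists rested on single libraries: without 1-month replicate 1 they were 2 for dendritic, 2 for endothelial and 1 for sex-linked genes.

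Among lists with at least 8 members tested, those whose median moved by more than 1 in the untagged comparison were the interferon (-2.18), resorption (1.49), stromal (1.45), SASP (-1.38), macrophage (-1.36), mitochondrial genome (1.16) and dendritic cell (1.01) lists. Most dendritic cell markers did not pass the threshold. Their summed level per library total was lower at 6 months, 51.1 to 54.4 CPM against 84.9 to 103 CPM in the 1-month libraries. Their median against the D1-tagged set was -1.14. The direction of the medians was the same against both 1-month sets for several lists, among them the macrophage, SASP, NRF2, lysosome, complement and repressor lists. It was opposite for others, among them the resorption, V-ATPase, coupling factor, interferon, cell cycle, ribosomal, mitochondrial genome, stromal and dendritic cell lists. Since both comparisons use the 6-month libraries, these are values side by side and not independent results.

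**Figure D5:**
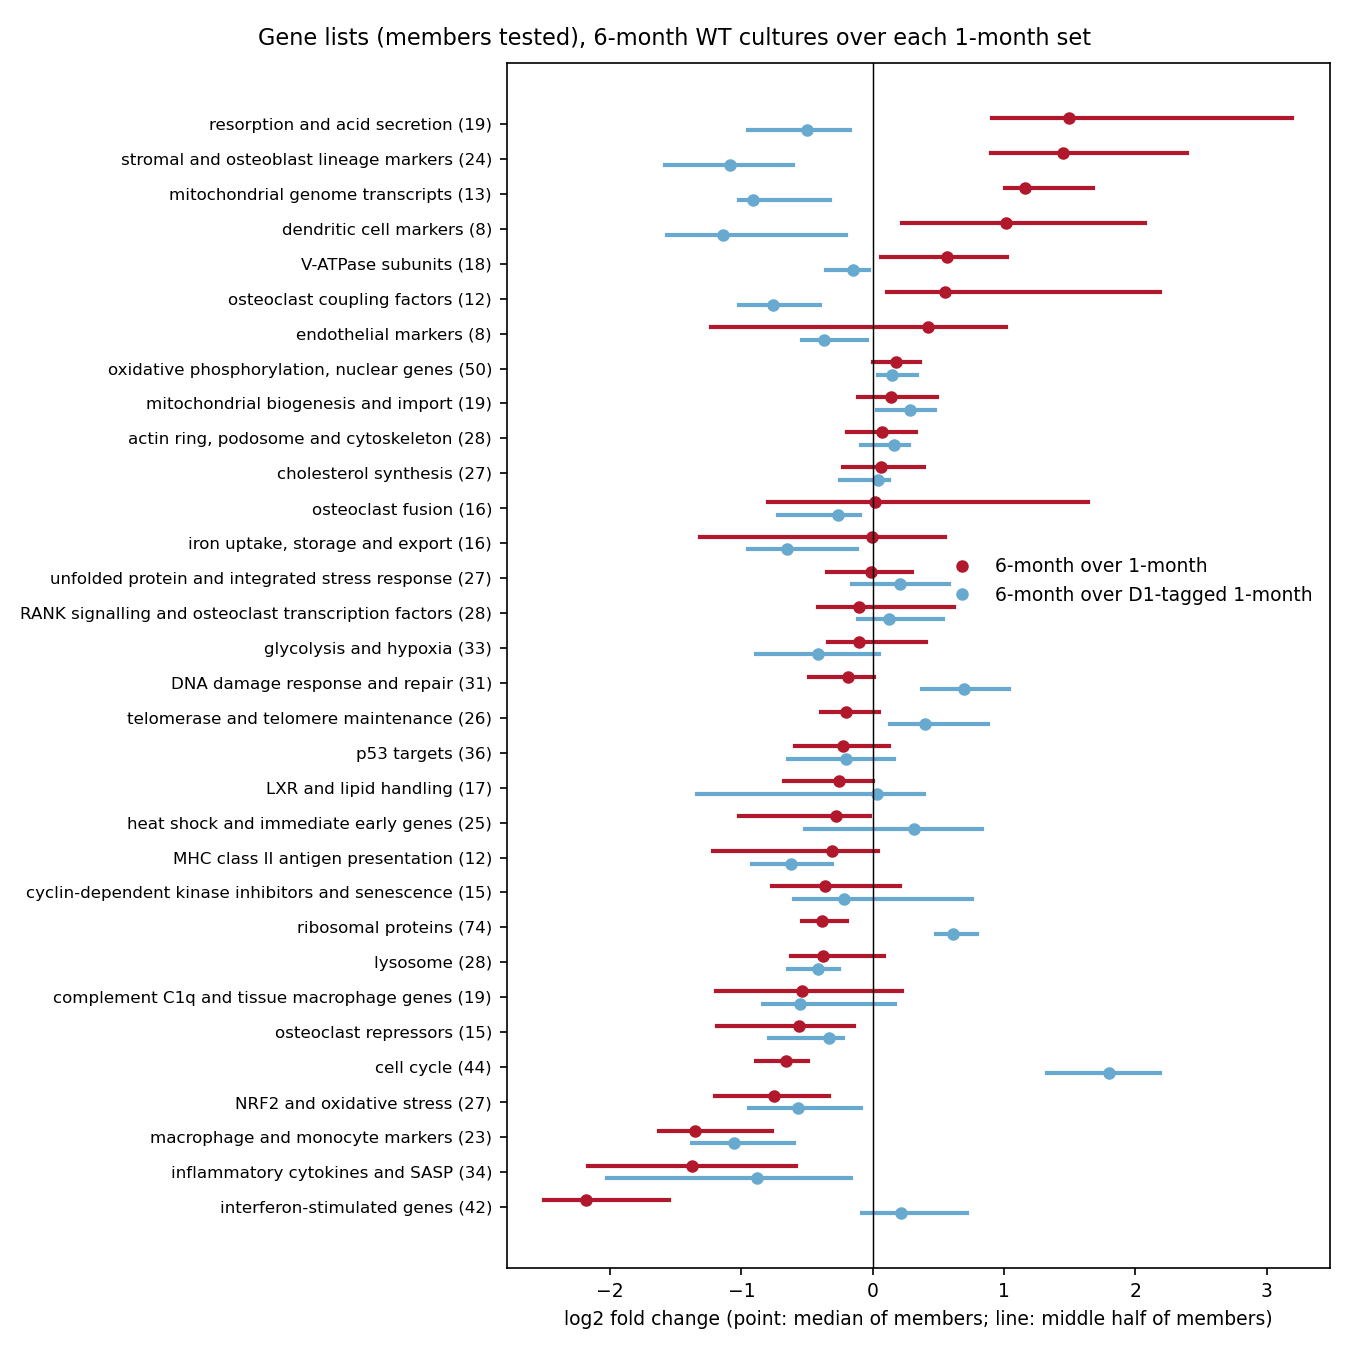
For each gene list with at least 8 members tested (number in parentheses), the point is the median log2 fold change of its members and the line spans their interquartile range, for 6-month over 1-month (red, upper) and 6-month over D1-tagged 1-month cultures (blue, lower). The points of the macrophage, SASP, NRF2 and lysosome lists lie below 0 against both sets, and those of the resorption, stromal, interferon and cell cycle lists lie on opposite sides of 0.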

How the data were processed

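Polyadenylated RNA of cultured osteoclasts was sequenced on an Illumina instrument, per the labels' protocols. Each file holds raw counts of fragments for every gene, deposited by the authors without normalization. Per the file headers, read pairs aligned with STAR were counted with featureCounts 1.6.0 over exons of the Ensembl 88 annotation (GRCm38). The submitters' processing notes name HTSeq and mm10. No option for strand or for multimapping reads is recorded, so overlapping antisense genes cannot be told apart.

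The 50686 genes per library carried a symbol in 99.39% of cases. Genes were kept by edgeR's filterByExpr (15310 kept). One quasi-likelihood model (edgeR 4.0.16, R 4.3.3, TMM scaling) held all 30 libraries and 1 coefficient for each of 10 groups, so that groups shared an estimate of the spread (common biological coefficient of variation 0.061). Groups came from the titles. The model was also run on simulated data in which few genes changed and all had the same spread. That setting is simpler than these data, so it does not test the calls made here. Alternatives were DESeq2 1.42.0, its size factors in edgeR, no filter, the compared libraries alone, each replicate left out, and the title number as a block.

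The comparison, the 38 gene lists and the markers were chosen with earlier results of these data known. Genes were named by a rule: the 12 largest changes in each direction among genes past the threshold with a mean of at least 5 CPM in a group and no overlap of libraries, 30 core genes, and up to 4 leading members and the highest member of each list. Gbp7, Cd3d, Hba-a1 and other genes named as not called or at 0, and members shown for their promoter, were named after values were seen. Promoter letters are from RefSeq (GRCm38.p6). Some genes that the rule names are not reported here.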

Additional observations from a re-analysis of the deposited data

How the results depend on the processing

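All 3 counts of genes past the threshold stayed within 1.5 times their value in every alternative run. The 9743 genes between 6-month and 1-month cultures became 9706 with DESeq2 size factors, 9554 without the filter, 9612 with the DESeq2 Wald test, 8914 with the compared libraries alone and 9039 to 9416 with 1 library left out. The title numbers 3 and 4 are shared by both groups, and the deviations of same-numbered libraries from their group means correlated at -0.0562 and 0.0606. With only these numbers shared and means of 3 libraries, this check cannot decide whether the numbers pair the libraries. The number as a replicate block left 6-month replicate 2 and 1-month replicate 1 each alone in a block. The contrast then rested on the libraries numbered 3 and 4, and 9113 genes passed. Members higher in that setting numbered 39 in the nuclear oxidative phosphorylation list (25 without the block), 2 in the dendritic cell list and 1 in the sex-linked list. Members higher in the dendritic list numbered 1, and 2 with DESeq2 size factors or without the filter, and 2 to 3 without 6-month replicate 3 or 4 or 1-month replicate 1 or 4. The endothelial list had 4 members higher, and 2 without 6-month replicate 3 or 1-month replicate 1 or 3. The sex-linked list had 2, and 1 without 6-month replicate 4 or 1-month replicate 1. Of 177 named genes, 172 kept direction and side of the threshold in 11 settings. The Y-linked gene Kdm5d, called higher at 0.20, lost its call without the filter and under the block. It also lost it without 6-month replicate 4 and without 1-month replicate 1 (adjusted p of 0.055 to 0.15 over these settings). Calr, of the unfolded protein list and called higher at 0.18, lost its call without 6-month replicate 3 (adjusted p = 0.051). Hsp90aa1 turned to 0.034 under the block and 0.004 without 6-month replicate 2, and Mki67 to -0.025 under the block and -0.044 without 1-month replicate 1, within a range up to 0.175 with 1 library left out; neither passed the threshold in any of these. Csf1r passed at -0.128 (adjusted p = 0.022) without 1-month replicate 1 and at -0.114 (adjusted p = 0.016) under the block. The cause was not tested. With 3 libraries a group, the calls rest on the spread over all groups, and genes of a few counts are known least well.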

Other observations

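By the annotation's gene classes, the median log2 fold change of 6-month over 1-month cultures was -0.02 for 13108 protein-coding genes, 0.27 for 504 processed pseudogenes, 0.25 for 409 antisense genes, 0.24 for 363 lincRNA genes and 0.67 for 305 genes awaiting experimental support (class TEC). Against the D1-tagged 1-month libraries the corresponding medians were 0.02, -0.04, -0.17, -0.24 and -0.15.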
